A study of Mus musculus with 240 samples.

Results

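The genes described here are 10 tubulin isotypes of the mouse, 4 alpha-tubulins (Tuba1a, Tuba1b, Tuba1c and Tuba4a) and 6 beta-tubulins (Tubb2a, Tubb2b, Tubb3, Tubb4a, Tubb5 and Tubb6). They were taken by symbol from the 34623 genes of the deposited count table, and all 10 passed the filter on low counts that left 16349 genes in the bulk fit. The set was chosen on the values of Tuba1c, which was low in mutant cells and high in tumours, so those differences of Tuba1c are given as a description without a test. The other 9 isotypes were named by family.

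The samples were oligodendrocyte precursor cells (OPCs) of mouse brain, marked by tdTomato and cut from cryosections by laser capture microdissection. Mutant animals are labelled CKO with the genotype Trp53-/- Nf1-/-, and controls were wild type (WT). Cells were taken at 12, 90 and 150 days after the start of tamoxifen treatment (dpi), and the mutant samples at 150 dpi are called Tumor. The bulk libraries, from 10 µm sections, came from 5 WT and 7 CKO animals at 12 dpi, 5 WT and 7 CKO animals at 90 dpi, and 6 WT and 7 Tumor animals at 150 dpi, with both sexes in every group. Small libraries came from CKO animals only, from 8 µm sections, with 56 10-cell samples and 40 pool-and-split controls at each of 12 and 90 dpi. Pool-and-split controls are equal shares of 1 pool of cells and carry the technical part of the spread. The labels give neither the age of the animals nor the Cre driver behind the alleles.

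Microtubules are hollow polymers of alpha- and beta-tubulin dimers. They carry transport in cell processes and form the spindle that separates chromosomes in mitosis. Mammals have several genes for each subunit, and the proteins are most alike in their globular body and differ most in the acidic tail at their C-terminal end, where much of the enzymatic modification of tubulin takes place. Tuba1a, Tubb2a, Tubb2b and Tubb3 are known as abundant brain isotypes, Tubb3 as a marker of neurons, and Tubb4a as an isotype of neurons and myelinating oligodendrocytes. Tubb5 and Tuba1b are expressed in most dividing cells, and Tuba1c and Tubb6 are minor isotypes in adult brain.

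The near identity of some isotypes bears on how reads are assigned to them. On GRCm38, Tuba1b (chromosome 15, 98931425 to 98934565, minus strand), Tuba1a (98949841 to 98953551, minus strand) and Tuba1c (99029891 to 99038105, plus strand) lie next to each other on chromosome 15. In the GENCODE M21 transcripts the coding sequences of Tuba1a and Tuba1c were 97.1% identical, and those of Tuba1b and Tuba1c were 97.9% identical, with 28 differing positions out of 1356. The longest stretch of coding sequence that all 3 share without a difference was 239 bases. Of the 50-base stretches of the Tuba1c transcript, 61.0% occurred in a transcript of another gene, against 75.5% for Tuba1a and 83.1% for Tuba1b. In the last 500 bases these shares were 68.3% for Tuba1c, 56.3% for Tuba1a and 81.4% for Tuba1b. The division of reads among these 3 genes is therefore an estimate of the counting program, and the values below are uncertain to that extent.

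Tubb2a (chromosome 13, 34074274 to 34078007) and Tubb2b (34126748 to 34130466, both minus strand) form a second near-identical pair, with 96.5% coding identity and a longest shared stretch of 551 bases. Their coding ends, shown because they differ at only 3 positions (capitals), are at chr13:34074468-34074527 and chr13:34127471-34127530.
Tubb2a: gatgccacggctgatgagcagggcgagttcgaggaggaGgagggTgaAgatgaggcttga
Tubb2b: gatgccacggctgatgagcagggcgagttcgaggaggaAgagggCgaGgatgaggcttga
The stretches after the stop codon were only 20.7% identical. None of the 50-base stretches in the last 500 bases of Tubb2b occurred in another gene, whereas 42.4% of those of Tubb2a did. The other 4 beta-tubulins, Tubb3, Tubb4a, Tubb5 and Tubb6, shared at most 0.184% of their 50-base stretches with other genes. Tuba4a (chromosome 1, 75214228 to 75219865, minus strand) overlaps Stk16 on the opposite strand by 1379 bases. Of the 50-base stretches of Tuba4a 48.8% occurred in another gene, and 100% of those in its last 500 bases did. Stk16 did not pass the test in tumours against WT (log2 change -0.19, adjusted p = 0.48) or against CKO at 90 dpi (-0.45, adjusted p = 0.055), and its level ranged from 14.2 to 64.2 counts per 1000000 counts (CPM) over all animals.

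The 250 bases before the RefSeq start of Tuba1c (GRCm38.p6, chr15:99029641-99029890, plus strand) are shown because Tuba1c is the isotype whose level differed most between groups. Capitals mark matches, on either strand, to any of 4 motifs that do not overlap here: CCAAT (the CCAAT box), TTTGAA (the core of the cell cycle homology region), GGGCGG (the GC box) and TATAAA (the TATA box).
Tuba1c: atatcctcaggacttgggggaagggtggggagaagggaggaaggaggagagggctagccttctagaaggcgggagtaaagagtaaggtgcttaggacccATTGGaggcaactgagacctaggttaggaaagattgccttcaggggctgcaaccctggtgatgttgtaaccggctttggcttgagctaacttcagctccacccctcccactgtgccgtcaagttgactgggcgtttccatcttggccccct
The window held 1 match, a CCAAT box read on the minus strand. CCAAT occurs in 34.5% of the 27025 windows of the same length before RefSeq gene starts, TTTGAA in 16.3%, GGGCGG in 32.9% and TATAAA in 13% of them. Entries were matched for 8 isotypes, and CCAAT was also found for Tuba1a, Tubb3 and Tubb5.

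The 48 bulk libraries held 0.0937 to 23.2 M counts each (M stands for 1000000; median 10.0 M), and the 11 animals with 2 libraries had these summed. WT_21167 at 90 dpi had only 0.0937 M counts, and the fitted log2 changes and counts of calls were also computed without it. The levels, shares, list counts and correlations below include it. Nf1 had a median of 181 CPM in CKO against 310 CPM in WT animals at 12 dpi, and Trp53 had 32.4 against 32.2 CPM. Whether the alleles were lost in the marked cells was not tested, and these levels alone do not tell it. OPC markers were present in every group (8 genes, summed level 1668 to 8082 CPM), with Pdgfra at 194 to 2630 CPM. Markers of other cells were present too: outside tumours the 10 neuron markers summed to 7029 to 16156 CPM and the 8 oligodendrocyte markers to 1452 to 4354 CPM. These are bulk samples, in which fewer cells of a type and less RNA per cell cannot be told apart.

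Compared per length of transcript, the alpha-tubulin Tuba1a was the most abundant isotype in all 6 groups, with medians of 745 to 1003 CPM per kilobase. This division takes 1 annotated transcript per gene and presumes that reads cover it evenly, which was not checked. Tuba1b and Tubb2a took the next places outside tumours, with overlapping ranges in all 5 of those groups, at medians of 290 to 363 and 257 to 644 CPM per kilobase. Tubb4a followed at 140 to 194 CPM per kilobase, and Tubb5, Tubb3, Tubb2b and Tuba4a formed a lower group whose order varied between groups of animals. Tuba1c and Tubb6 were the lowest outside tumours. Tuba1c had a median of 9.63 CPM per kilobase in WT animals at 12 dpi and 0.859 in CKO animals of that age, while Tubb6 had 3.99 and 6.25. In tumours the order changed: Tubb2b (147 CPM per kilobase), Tubb5 (129) and Tubb2a (123) came after Tuba1b, with overlapping ranges, Tuba1c stood at 31.6, and Tubb3 (8.34), Tubb6 (5.47) and Tuba4a (5.11) were lowest.

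Tuba1c separated the genotypes at 12 dpi. The 5 WT animals had 14.5, 18.6, 19.1, 20.7 and 22.0 CPM, and the 7 CKO animals ranged from 0 to 2.40 CPM with a median of 1.70. No CKO animal came near the lowest WT animal. Of all tested genes 1.33% had no overlap between these 2 groups. The CKO values rested on 0 to 43 counts per animal. The animal at 0, CKO_21725, had 2.41 M counts, and 3 counts, the limit that a count of 0 allows, would be 1.25 CPM there. Such limits cover counting error only. The fitted difference was -3.61 ± 0.62 (SE) on the log2 scale, a 12.2-fold lower level in CKO animals.

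At 90 dpi 4 of the 5 WT animals had 16.4, 24.5, 27.3 and 28.0 CPM, and the 7 CKO animals ranged from 0.15 to 3.85 CPM with a median of 1.23. The fifth WT animal, WT_21167, had 0 counts, but its low depth allows up to 28.4 CPM, which covers all other WT animals. The groups overlapped only through this animal. The fitted difference was -3.96 ± 0.62, and it ranged from -4.64 to -3.73 when each of the 37 animals was left out in turn, with -4.64 without CKO_20647. The highest CKO value, 3.85 CPM in CKO_20647, came mostly from 1 of its 2 libraries, with 6.34 CPM in the first and 0.185 in the second.

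At 150 dpi the tumours had the highest median Tuba1c level of the 6 groups. They had a range of 26.0 to 104 CPM and a median of 62.7, resting on 461 to 3004 counts per animal. The 6 WT animals fell far apart. WT_21590, WT_21592 and WT_21593 had 0.51, 0.57 and 0.66 CPM, WT_21591 had 7.54 CPM, and WT_22064 and WT_22062 had 16.8 and 17.4 CPM. Thus 3 WT animals at 150 dpi were as low as the CKO animals at 90 dpi, and 2 were at the level of WT animals at 12 dpi. The 4 lower animals were male and the 2 higher ones female. At 12 dpi, by contrast, the 3 WT males (19.1 to 22.0 CPM) were not below the 2 WT females (14.5 and 18.6 CPM). WT_21593 had 9.94 M counts, 7 of them on Tuba1c, and WT_22062 had 3.06 M counts, 52 of them on Tuba1c. The part of sex and depth in this spread was not tested.

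In Tuba1c no tumour overlapped the WT animals at 150 dpi or the CKO animals of either day. The same was so for 15.7% of all tested genes against WT at 150 dpi and 17.2% against CKO at 90 dpi. The lowest tumour (26.0 CPM) lay within the range of WT animals at 90 dpi. The fitted differences were 3.29 ± 0.60 on the log2 scale against WT at 150 dpi (9.78-fold) and 5.59 ± 0.63 against CKO at 90 dpi (48.1-fold), and both comparisons use the same tumours. Without CKO_20647 the second was 6.26. In the 7 tumours, each with 2 libraries, the Tuba1c level of the second library differed from the first by at most 0.704 on log2(CPM + 1), scaled by library totals. The plot of Tuba1c by animal shows these levels.

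**Figure D1:**
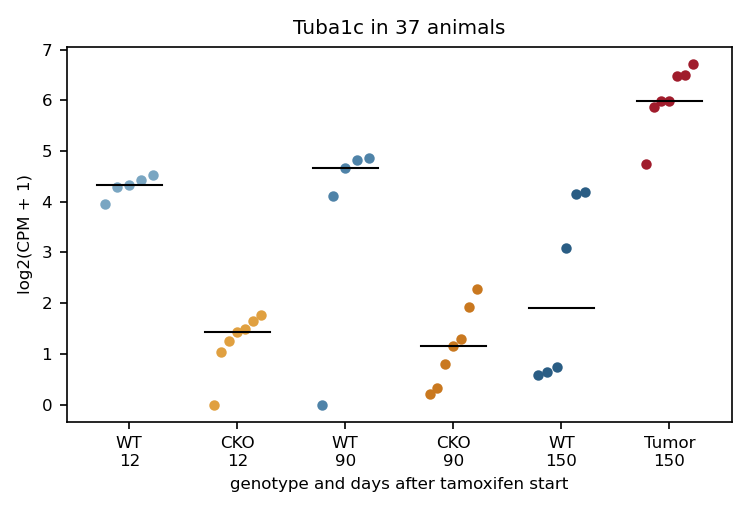
Tuba1c level, log2(CPM + 1), in each of the 37 animals (points) by genotype and day, with the group median (black line). The 7 CKO animals at 12 dpi lie at or below 2.40 CPM, the 7 tumours lie at or above 26.0 CPM, and the 6 WT animals at 150 dpi spread from 0.51 to 17.4 CPM.

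Changes of Tuba1c over time within a genotype were not named in its choice, but they use the same animals and values. They were fitted in edgeR with Benjamini-Hochberg adjustment over all 16349 genes. The adjusted p-values are given as a description and not as an independent test. From 90 to 150 dpi in WT animals the change was -1.67 ± 0.62 (adjusted p = 0.517), with a range of -2.19 to -1.40 when single animals were left out. From 12 to 90 dpi it was 0.23 ± 0.62 in WT (adjusted p = 1) and -0.12 ± 0.60 in CKO animals (adjusted p = 1). None of these passed the threshold of 0.05.

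Tuba1c was a small part of the reads of the 3 near-identical genes. At 12 dpi Tuba1c made up 0.592% to 1.09% of the summed CPM of Tuba1a, Tuba1b and Tuba1c in WT animals and 0 to 0.108% in CKO animals. In tumours its share was 1.27% to 4.24%. The mean Tuba1c level of WT animals at 12 dpi, 19.0 CPM, was below the SD of Tuba1a (265 CPM) and of Tuba1b (56.6 CPM) in the same animals, so reads passing from Tuba1c to a paralog could not be seen there. The summed level of the 3 genes was 2342 ± 301 CPM (SD, n = 5) in WT and 2087 ± 237 CPM (SD, n = 7) in CKO animals at 12 dpi, and 2725 ± 1140 CPM (SD, n = 7) in tumours.

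Tuba1a, the main alpha-tubulin of young neurons and glia, had medians of 1343 to 1809 CPM in the 6 groups. It ranged from 1049 to 3975 CPM in tumours, and Tumor_16839 stood above all other animals. Tuba1b, a general alpha-tubulin, had group medians of 505 to 676 CPM. Neither gene was called in any comparison of the bulk animals. In tumours against CKO at 90 dpi the changes were 0.39 ± 0.19 (adjusted p = 0.0929) for Tuba1a and 0.21 ± 0.13 (adjusted p = 0.187) for Tuba1b. These 2 results depended on the scaling of the libraries: with RLE size factors, which move the median change of all genes by 0.17 in this comparison and by 0.15 in tumours against WT, they were 0.54 (adjusted p = 0.0141) and 0.36 (adjusted p = 0.0121). Tuba1b also passed against WT with RLE size factors (0.39, adjusted p = 0.011).

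Tuba4a, an alpha-tubulin of differentiated neurons and of muscle that lacks the C-terminal tyrosine when translated, was lower in tumours. The 7 tumours had 9.19 to 44.9 CPM (median 14.5), the 6 WT animals at 150 dpi 47.6 to 140 CPM (median 80.5), and the 7 CKO animals at 90 dpi 106 to 417 CPM (median 120). Every tumour lay below every animal of both groups. The 2 libraries of Tumor_16713 differed widely, with 38.4 and 0.453 CPM when scaled by library totals. Of all tested genes 15.7% had no overlap between tumours and WT at 150 dpi, and 17.2% between tumours and CKO at 90 dpi. The log2 changes were -1.99 ± 0.32 (adjusted p = 4e-06) against WT and -2.93 ± 0.33 (adjusted p = 2.3e-09) against CKO. The 417 CPM belonged to CKO_20647, whose libraries had 123 and 595 CPM, and in which the neuron markers summed to 16156 CPM, the highest of all animals. Tuba4a is uncertain where it overlaps Stk16, since the strand setting of the counting is not given in the sources used here.

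Of the 9 isotypes other than Tuba1c, 4 were lower and 1 was higher in tumours than in WT animals at 150 dpi, where 46.2% of all tested genes were called, 24.3% higher and 21.9% lower. Against CKO at 90 dpi 3 were lower and 2 higher, where 49.1% of genes were called, 26.4% higher and 22.6% lower. Under DESeq2 the higher share of the calls in that comparison was 64.3% in place of 53.8%. With calls this frequent, the number of isotypes called is near the background and the levels carry the description.

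**Figure D2:**
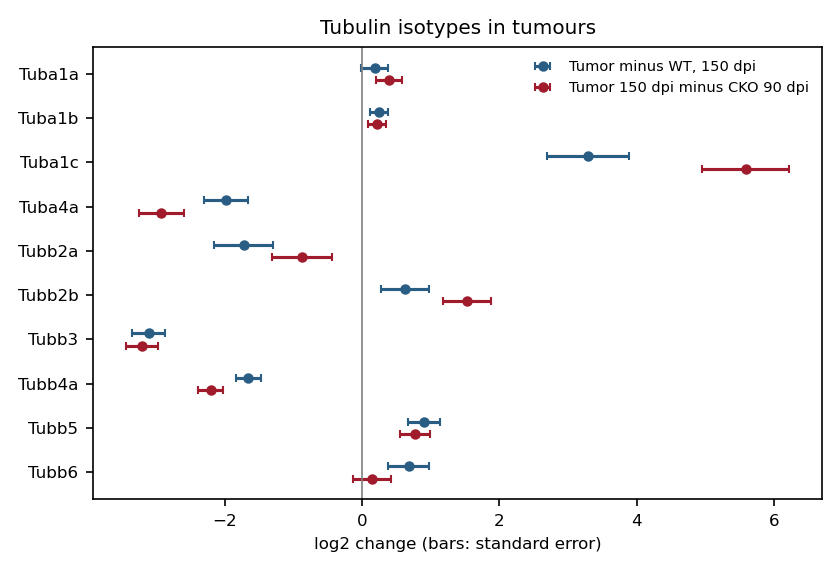
Fitted log2 change (point) with its standard error (bar) of each isotype in tumours against WT at 150 dpi (blue) and against CKO at 90 dpi (red). Tubb3, Tuba4a and Tubb4a lie below 0 in both, Tubb5 and Tuba1c above 0 in both, and Tubb2a and Tubb2b on opposite sides of 0. Tuba1c is shown as a description.

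Tubb3 (chromosome 8, 123411424 to 123422015, plus strand), the neuronal beta-tubulin, fell most among the 10 isotypes in tumours, in both comparisons. It lies wholly within the annotated gene Gm20388 on the same strand, which had 10.3 to 64.6 CPM over all animals and rose in tumours (0.95, adjusted p = 0.0078, and 0.83, adjusted p = 0.011). It ranged from 5.27 to 25.6 CPM in the 7 tumours (median 15.6) and from 99.2 to 139 CPM in the 6 WT animals at 150 dpi (median 125). It ranged from 110 to 172 CPM in the 7 CKO animals at 90 dpi (median 129). Tumours did not overlap either group, as was so for 15.7% of all genes against WT and 17.2% against CKO. All 5 groups without tumours stayed between 99.2 and 172 CPM. The log2 changes were -3.11 ± 0.24 (adjusted p = 2.1e-13) against WT, an 8.61-fold lower level, and -3.21 ± 0.23 (adjusted p = 6e-14) against CKO, a 9.25-fold lower level.

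Tubb4a (chromosome 17, 57080066 to 57087782, minus strand) was also lower in tumours. The tumours had 73.7 to 176 CPM (median 83.7), the WT animals 199 to 363 CPM (median 326) and the CKO animals at 90 dpi 340 to 560 CPM (median 423). Tumour and other animals did not overlap, as was so for 15.7% of all genes against WT and 17.2% against CKO. The 2 libraries of Tumor_16713 differed widely, with 205 and 34.2 CPM when scaled by library totals. The log2 changes were -1.66 ± 0.18 (adjusted p = 1.1e-09) and -2.21 ± 0.18 (adjusted p = 8.5e-13).

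Markers of neurons and oligodendrocytes moved with Tubb3, Tuba4a and Tubb4a. The 10 neuron markers summed to 305 to 1545 CPM in tumours, 8330 to 11591 CPM in WT at 150 dpi and 8426 to 16156 CPM in CKO at 90 dpi. Of them 9 fell against WT and 10 against CKO, where 21.9% and 22.6% of all genes fell, with median log2 changes of -3.28 and -3.54, beside 0.06 and 0.12 for all tested genes. No neuron marker was at 0 in all tumours. The 8 oligodendrocyte markers summed to 290 to 1516 CPM in tumours and 1466 to 2769 CPM in WT, and 5 fell and 1 rose against WT, beside 21.9% and 24.3% of all genes. The part of these cells in the fall of the isotypes was not tested. Among tumours Tumor_21349 stood apart, with the highest Tubb3 (25.6 CPM) and the lowest neuron marker sum (305 CPM). In the other tumours the order of Tubb3 was nearly that of the neuron marker sum. Among these, Tumor_21256 was highest in both (marker sum 1545 CPM, Tubb3 20.2 CPM) and Tumor_16713 lowest in both (307 and 5.27 CPM). Only Tumor_16844 (1125 and 15.6 CPM) and Tumor_16839 (798 and 19.0 CPM) changed places.

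**Figure D3:**
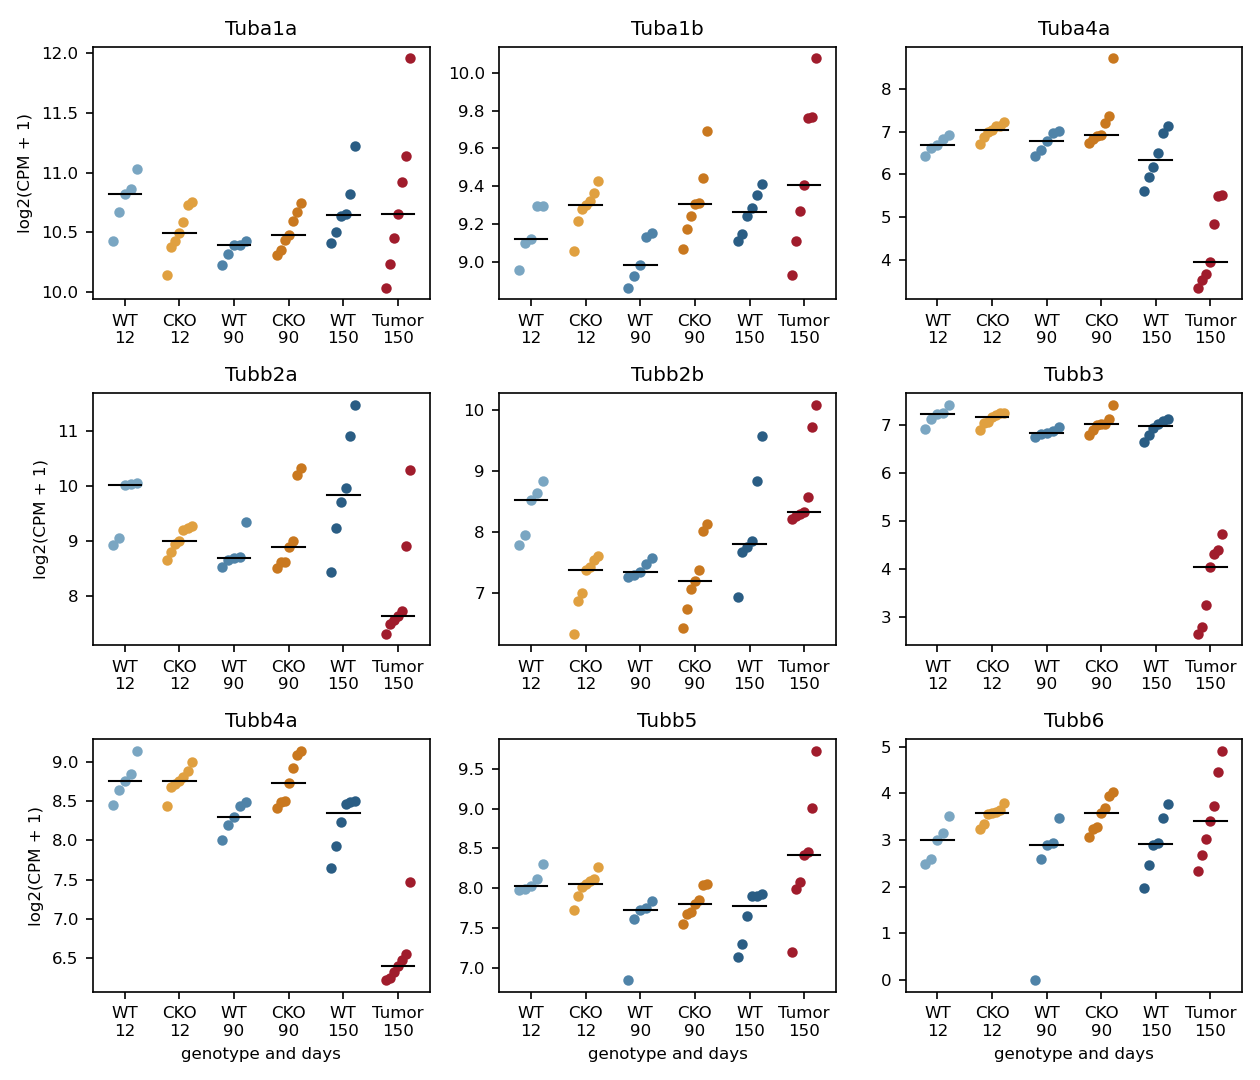
Levels of the 9 isotypes other than Tuba1c, log2(CPM + 1), in each of the 37 animals (points) by genotype and day, with group medians (black lines); each panel has its own vertical scale. Tuba4a, Tubb3 and Tubb4a of the 7 tumours lie below all WT animals at 150 dpi, where 15.7% of all tested genes did not overlap. The single point at 0 for Tubb6 is WT_21167.

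Tubb2a and Tubb2b, the near-identical pair, differed in the share each held in tumours. Tubb2b had 295 to 1089 CPM in the 7 tumours (median 321) and 84.5 to 280 CPM in the CKO animals at 90 dpi (median 145). These did not overlap, as was so for 17.2% of all genes. Tubb2b rose by 1.53 ± 0.35 on the log2 scale (adjusted p = 0.00036). Against WT at 150 dpi (121 to 766 CPM, median 223) the groups overlapped and the change of 0.63 ± 0.35 did not pass (adjusted p = 0.141). Without WT_21592, the highest WT animal, it was 1.05 (adjusted p = 0.0112). Tubb2a had 157 to 1246 CPM in tumours (median 199), 343 to 2845 CPM in WT (median 915) and 362 to 1281 CPM in CKO animals at 90 dpi (median 472). Its change against WT was -1.73 ± 0.43 on the log2 scale (adjusted p = 0.0013), with overlapping ranges. It was -2.39 (adjusted p = 3.95e-06) without Tumor_21256 and -1.31 (adjusted p = 0.0117) without WT_21592. Against CKO its change was -0.88 ± 0.44 (adjusted p = 0.094), and -1.5 (adjusted p = 0.00107) without Tumor_21256, the tumour with 1246 CPM.

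As a share of the pair, Tubb2b made up 46.6% to 66.1% in the 7 tumours and 15.2% to 33.6% in all 30 other animals. The shares of tumours and other animals did not overlap, while the summed levels did, with 464 to 2335 CPM in tumours and 464 to 3611 CPM in WT at 150 dpi. The share is a description of how the counting program divided the pair.

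**Figure D4:**
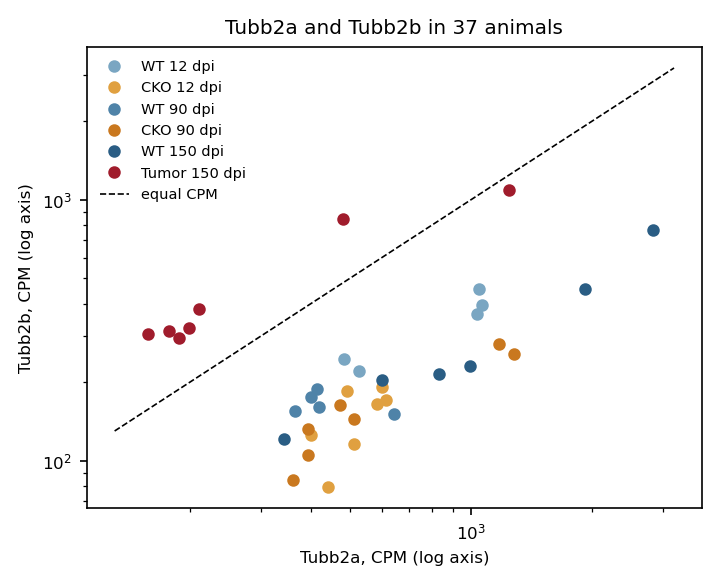
Tubb2a against Tubb2b, both in CPM on log axes, for the 37 animals, coloured by genotype and day; the dashed line marks equal CPM. Of the 7 tumours 6 lie above the line and 1 just below it, with Tubb2b at 46.6% to 66.1% of the pair, and the other 30 animals lie further below it.

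Both genes of the pair were high together in certain animals, and sequencing depth moved with that. At 12 dpi the 3 WT animals with 3.04 to 3.47 M counts had Tubb2a at 1037, 1048 and 1064 CPM. The other 2 WT animals, with 8.59 and 10.7 M counts, had 526 and 484 CPM. At 90 dpi the 2 CKO animals with 4.11 and 4.22 M counts had 1281 and 1173 CPM, and the other 5, with 13.2 to 30.1 M counts, had 362 to 512 CPM. The highest tumour, Tumor_21256, had the lowest depth of the tumours (4.91 M), and the highest WT animal at 150 dpi, WT_21592, the lowest of its group (2.32 M). An exception was CKO_21725 at 12 dpi, with 441 CPM at 2.41 M counts. The part of depth in the fall of Tubb2a against WT was not tested. The WT group at 150 dpi had 2.32 to 14.8 M counts per animal and the tumours 4.91 to 31.3 M.

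Tubb5 (chromosome 17, 35833921 to 35838306, minus strand), the beta-tubulin of most proliferating cells, was higher in tumours with overlapping ranges. The tumours had 145 to 847 CPM (median 342), the WT animals at 150 dpi 140 to 242 CPM (median 219), and the CKO animals at 90 dpi 187 to 266 CPM (median 223). Of the 7 tumours, 6 were above all WT animals at 150 dpi, and Tumor_21256 was at 145 CPM. The log2 changes were 0.90 ± 0.23 (adjusted p = 0.00138) and 0.77 ± 0.22 (adjusted p = 0.00309). With only the groups of the second comparison in the fit the adjusted p was 0.0501.

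Tubb6 (chromosome 18, 67390717 to 67402748, plus strand), a minor isotype, had 4.04 to 29.0 CPM in tumours (median 9.62) and 2.90 to 12.6 CPM in WT at 150 dpi (median 6.53). Its change of 0.68 ± 0.30 did not pass (adjusted p = 0.066). With RLE size factors it was 0.83 (adjusted p = 0.0241).

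Proliferation markers were higher in tumours, as were Tuba1c and Tubb5. How the markers and Tuba1c go together among the tumours was not tested. Tumor_16839 had the highest sum of the 8 markers (2561 CPM) and 49.1 and 57.9 CPM of Tuba1c in its 2 libraries. Tumor_21256 had the lowest sum (432 CPM), 77.9 and 127.5 CPM of Tuba1c in its 2 libraries, and the lowest Tubb5 (145 CPM). The Tuba1c values of single libraries were scaled by library totals, so they are not on the scale of the marker sums and Tubb5 levels per animal. The 8 markers summed to 432 to 2561 CPM in tumours and 13.3 to 39.3 CPM in WT at 150 dpi, and all 8 rose in both comparisons, where 24.3% and 26.4% of all genes rose, with median log2 changes of 5.79 and 4.56. At 12 dpi, where Tuba1c was lower in CKO animals, the marker sum was 58.1 to 123 CPM in CKO and 32.8 to 70.9 CPM in WT animals, with overlapping ranges and none of the 8 markers called. The 8 OPC markers also were higher in tumours, with 7 called in each comparison, and of the 8 microglia markers 7 and 8 were called higher, beside the same 24.3% and 26.4% of all genes. Their part in the result was not tested.

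Before tumours, none of the 9 other isotypes was called between genotypes. At 12 dpi 0.0183% of all genes were called and at 90 dpi 0.0489%. The isotype with the largest difference was Tubb2b at 12 dpi, with 220 to 454 CPM in WT and 79.0 to 193 CPM in CKO animals. These did not overlap, as was so for 1.33% of all genes, but the change of -1.15 ± 0.36 did not pass (adjusted p = 0.753). The 3 highest WT animals were those of low depth. The change of Tubb2b passed when only the 12 dpi groups were fitted (-1.22, adjusted p = 0.029). No isotype, Tuba1c included, was called over time in the fit of all animals: from 12 to 90 dpi 0% of genes were called in CKO animals and 0.00612% in WT animals, and 0.0183% from 90 to 150 dpi in WT animals. With only the WT groups at 12 and 90 dpi in the fit, 295 genes were called, among them Tuba1a (-0.45, adjusted p = 0.0368), Tubb2a (-1, adjusted p = 0.0209) and Tubb2b (-1.01, adjusted p = 0.0128). For the CKO comparison, with no gene called in edgeR, 696 genes had an unadjusted p under 0.05, and DESeq2 called 4 genes.

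The difference between mutant and WT was itself compared between 150 and 90 dpi, a test that uses the same tumours again. Of the 9 isotypes 4 had a lower genotype effect at 150 dpi and none a higher one in the fit of all animals with TMM scaling. There 30.0% of all genes were called, 14.2% higher and 15.8% lower. Of all genes called 47.2% were higher, against 57.3% with RLE size factors. The changes were -3.31 ± 0.34 for Tubb3 (adjusted p = 1.1e-09), -2.56 ± 0.48 for Tuba4a (adjusted p = 6.5e-05), -2.31 ± 0.64 for Tubb2a (adjusted p = 0.00541) and -2.13 ± 0.26 for Tubb4a (adjusted p = 5.5e-08). Tuba1c, as a description, went from 15.6-fold lower in CKO to 9.78-fold higher in tumours, a difference of 7.25 on the log2 scale (7.98 without CKO_20647). Without Tumor_21256 the value of Tubb2a was -2.96 (adjusted p = 5.66e-05). Tubb5 did not pass (0.71 ± 0.33, adjusted p = 0.101). It was called higher with RLE size factors (0.86, adjusted p = 0.0365), in DESeq2 (0.86, adjusted p = 0.0283) and without Tumor_21256 (0.87, adjusted p = 0.0193).

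Other genes of the tubulin system were counted in lists by function. Of all tested genes 24.3% rose and 21.9% fell against WT, with a median log2 change of 0.06, and 26.4% rose and 22.6% fell against CKO, with a median of 0.12. Of 10 further tubulins 6 had enough counts. Against WT 3 of the 6 rose and 2 fell (24.3% and 21.9% of all genes), led by Tuba8, an alpha-tubulin (-4.32 ± 0.35, adjusted p = 8.2e-13), Tubg2, the gamma-tubulin of brain (-2.18 ± 0.27, adjusted p = 1.8e-08), and Tubd1, delta-tubulin of centrioles (1.61 ± 0.53, adjusted p = 0.012). Of 20 tested genes for folding and dimer assembly 6 rose and 2 fell against WT, with a median change of 0.16, near the 24.3% higher of all genes and with a lower share falling than their 21.9%. The tubulin cofactor Tbcb (3.23 ± 0.70, adjusted p = 0.00022) and Cct3, a subunit of the CCT chaperonin (1.07 ± 0.20, adjusted p = 4.2e-05), were the largest rises.

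Of 19 enzymes that modify tubulin 6 were higher and 5 lower against WT, with a median of 0.07, which is near the 24.3% and 21.9% of all genes. Vash2, a carboxypeptidase that removes the terminal tyrosine, rose by 1.36 ± 0.27 (adjusted p = 8.9e-05), and its partner Svbp rose by 1.07 ± 0.38 (adjusted p = 0.02). Agtpbp1, which shortens polyglutamate chains, fell by 2.12 ± 0.19 on the log2 scale (adjusted p = 1.2e-11), and Ttll7, a polyglutamylase of beta-tubulin in neurons, fell by 1.48 ± 0.23 (adjusted p = 1.4e-06).

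Genes that stabilise microtubules fell, 9 of 12 against WT and 9 of 12 against CKO, with medians of -1.04 and -1.09, where 21.9% and 22.6% of all genes fell. They included Dcx, doublecortin of young neurons (-2.53 ± 0.50, adjusted p = 7.3e-05), Dclk1 (-2.30 ± 0.17, adjusted p = 1.8e-13) and Map1a (-2.14 ± 0.21, adjusted p = 7.8e-11). Mtus1 was the 1 that rose. Among 15 regulators of microtubule dynamics 10 fell and 2 rose against WT (21.9% and 24.3% of all genes), led by the stathmin Stmn2 (-3.66 ± 0.25, adjusted p = 1.4e-14), while the end-binding gene Mapre1 rose by 0.98 ± 0.16 (adjusted p = 2.9e-06). Many of the genes that fell are known from neurons, whose markers fell in the same samples as given above. The part of neurons in these falls was not tested, and fewer cells cannot be told apart from less RNA per cell.

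Of 12 spindle genes 11 rose and none fell in each tumour comparison, with medians of 3.97 and 3.67, where 24.3% and 26.4% of all genes rose. The mitotic kinesins Kif4 (7.71 ± 0.80, adjusted p = 4.7e-10) and Kif2c (6.94 ± 0.77, adjusted p = 2e-09) led. Of 8 genes of the gamma-tubulin ring complex 2 rose against WT, near the 24.3% of all genes, Nedd1 (1.86 ± 0.32, adjusted p = 8.4e-06) and Tubgcp2 (0.48 ± 0.19, adjusted p = 0.034). No gene of these lists was called between genotypes at 12 or 90 dpi.

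The genes whose levels ordered the 37 animals most like Tuba1c were Coa4 (Spearman correlation 0.83), Eif4ebp1 (0.78), Map3k7cl (0.76), Vangl1 (0.74) and Rsad2 (0.74), none of them a tubulin. The lowest WT animal at 90 dpi had 0 CPM for each of the 5. Map3k7cl had 1.16 to 5.02 CPM in WT and 0 to 1.49 CPM in CKO animals at 12 dpi, with overlapping ranges. Coa4 ranged from 3.95 to 8.37 CPM in WT and 0.418 to 6.42 CPM in CKO animals at 12 dpi, so those groups overlapped. The values are descriptions over animals that share depth and group.

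In the small CKO libraries Tuba1c was rarely counted. It had a count in 8 of 56 10-cell samples at 12 dpi (14.3%) and in 19 of 56 at 90 dpi (33.9%). In the pool-and-split controls it had a count in 11 of 40 (27.5%) and 7 of 40 (17.5%). The median was 0 CPM in each of these groups, and the highest single libraries had 162, 72.0, 285 and 76.0 CPM. Of the 192 libraries 13 were above 10 CPM, namely 4 and 4 of the 10-cell samples and 3 and 2 of the controls. In the 10-cell samples the number of genes with a count rose with the detection, with medians of 7550 genes at 12 dpi and 10110 at 90 dpi. In the controls it hardly changed, with 8690 and 8739 genes, while the detection fell. The median totals were 4.48 and 4.04 M counts in the 10-cell samples and 4.36 and 3.53 M in the controls. The controls, which hold no difference between groups of cells, went the other way over time, so the share of 10-cell samples with a count is not read as a change.

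**Figure D5:**
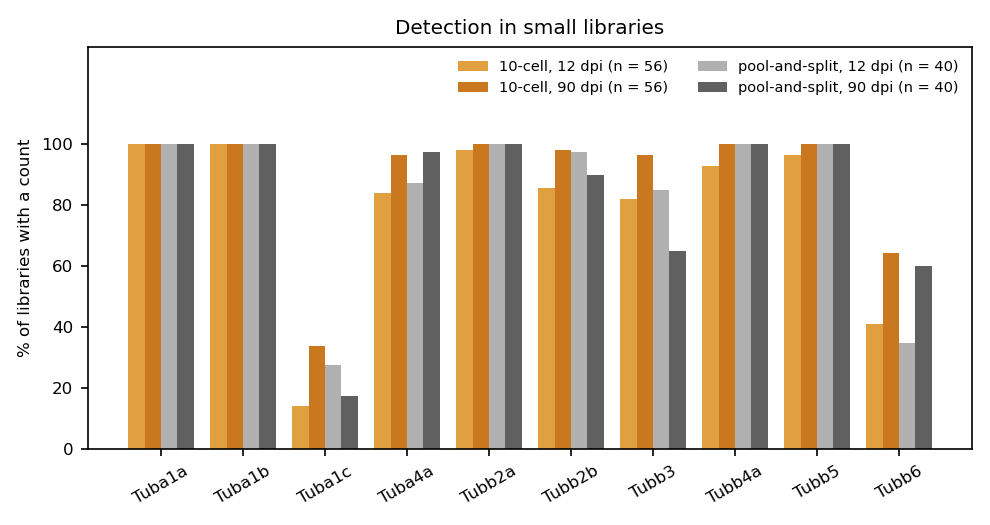
Percentage of small CKO libraries with at least 1 count of each isotype, for 10-cell samples (56 libraries a bar) and pool-and-split controls (40 libraries a bar) at 12 and 90 dpi. Tuba1a and Tuba1b are at 100% in all 4 groups, Tuba1c lies between 14.3% and 33.9%, and Tubb6 between 35.0% and 64.3%.

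Tuba1a and Tuba1b were counted in every small library. Tuba1a had group medians of 1342 to 2102 CPM and Tuba1b of 745 to 1107 CPM. Tubb2a was counted in all but 1 library (medians 819 to 1213 CPM) and Tubb5 in all but 2 (382 to 476 CPM). Tubb4a (37.5 to 90.1 CPM), Tuba4a (87.5 to 113 CPM) and Tubb3 (5.79 to 120 CPM) were counted in most. Tubb2b had medians of only 3.28 to 14.4 CPM, and made up 0.676% to 8.16% of the Tubb2a and Tubb2b counts in the 16 sets of libraries, against 15.2% to 27.3% in the bulk CKO animals at 12 and 90 dpi. Bulk and small libraries differ in section thickness and in amplification (linear with T7 polymerase, against PCR), and these cannot be told apart from the cells.

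Over time the sets of small libraries, 4 per day and kind, were compared by edgeR. No isotype was called from 12 to 90 dpi in the 10-cell samples (0% of 14500 genes called) or in the controls (0% of 13408 genes), whereas 1034 and 1050 genes had an unadjusted p under 0.05 and DESeq2 called 707 and 966 genes. The lowest unadjusted p of an isotype was that of Tubb2a in 10-cell samples, with set means of 1584 ± 279 CPM at 12 dpi and 815 ± 105 CPM at 90 dpi (SD, n = 4 sets each). Its change of -0.96 ± 0.20 gave an adjusted p of 0.515 in edgeR and 0.0441 in DESeq2. In the controls Tubb2a had 1421 ± 545 and 868 ± 270 CPM, a change of -0.72 ± 0.27 (adjusted p = 0.604). For Tuba1c the change was 0.60 ± 2.48 in the 10-cell samples (adjusted p = 0.967), and its error shows how little its few counts can tell.

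The spread between 10-cell samples was compared with that between controls, which asks whether small groups of cells differ in an isotype beyond technical noise. No tested isotype was called at 12 dpi (0.0252% of 7926 genes called) or 90 dpi (0.639% of 9704 genes). Tuba1c was not tested at either day and Tubb6 not at 12 dpi, because a count in at least 0.5 of the libraries was required. The test used the deviation of each library from the median of its set and kind, with single libraries as replicates. Libraries of 1 set may share an animal, so they may not be independent. The SDs below are descriptions that stand beside the p-values of this test. Tubb5 had a median SD over the 4 sets of 2.90 in 10-cell samples and 1.45 in controls at 12 dpi on log2(CPM + 1) (adjusted p = 0.428), and 0.95 and 1.90 at 90 dpi (adjusted p = 0.118). Tubb3 had 3.47 and 2.56 at 12 dpi (adjusted p = 0.427) and 2.52 and 3.11 at 90 dpi (adjusted p = 0.735). Tuba1a had 1.07 and 0.71 at 12 dpi and 0.55 and 1.00 at 90 dpi. Tubb6, tested at 90 dpi only, had 2.85 and 2.21 (adjusted p = 0.512).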

How the data were processed

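The table holds expected counts that the authors deposited, made with RSEM and Bowtie2 on GRCm38 per the submitters' processing notes; the strand setting is not given in the sources used here. Per the labels' protocols, T7 polymerase amplified bulk material linearly, and small libraries used PCR and Nextera XT. Expected counts split reads of near-identical genes by estimate. They were rounded, libraries of 1 animal were summed, and 92 spike-in rows were left out. The bulk libraries held 0.0937 to 23.2 M counts and the small ones 1.64 to 6.49 M.

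Tests used edgeR 4.0.16 in R 4.3.3. Low genes were removed by filterByExpr, with 10 as the least count and 15 as the least total. Scaling was by TMM, and the quasi-likelihood fit covered all 37 animals, with sex as a covariate and 8 contrasts. Small libraries were summed to 4 sets per day and kind. A gene was called where its p, adjusted by Benjamini-Hochberg across every gene tested, was under 0.05. CPM were per TMM-scaled total in bulk. The spread test used limma 3.58.1 on absolute deviations of log2(CPM + 1), for genes counted in 0.5 of the libraries. Nothing given says what separates the small sets or how animals were related, so p-values measure the spread between these samples. Transcripts came from GENCODE M21 and promoters from RefSeq. All 10 isotypes were named, with up to 3 genes per list and direction and the 5 genes most like Tuba1c by Spearman correlation. Members and lists were chosen with earlier results of these data known. Fits were tested on simulated data. The alternatives tried were RLE size factors, DESeq2 1.42.0, leaving out the filter or the sex term, 1 library per animal (the deepest), a fit of only the groups compared, a block for the sets, other pseudocounts and detection limits, and omission of each animal or set. Coding stretches of the near-identical alpha-tubulins are not reported here.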

Additional observations from a re-analysis of the deposited data

Results flagged for a closer look

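Of 60 groups of animals checked for a sample far from the others (1 isotype in 1 group each), 7 were flagged, where chance flags about 1 in 20. WT_21167 at 90 dpi, the animal with 0.0937 M counts, accounts for 4 of them: Tuba1c at 0 CPM (others 16.4 to 28.0), Tubb6 at 0 CPM (others 5.08 to 10.0), Tubb2a at 645 CPM (others 365 to 418) and Tubb5 at 114 CPM (others 195 to 228). The others were CKO_21725 at 12 dpi with Tuba1c at 0 CPM (others 1.06 to 2.40), CKO_20647 at 90 dpi with Tuba4a at 417 CPM (others 106 to 162), and Tumor_21354 with Tubb4a at 176 CPM (others 73.7 to 93.2).

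The effect of the genotype differed between 150 and 90 dpi for 4 of the 9 isotypes other than Tuba1c, in the fit of all animals with TMM scaling. The test of the difference gave log2 values of -3.31 for Tubb3, -2.56 for Tuba4a, -2.31 for Tubb2a and -2.13 for Tubb4a. Tuba1c was chosen for its fall in mutant cells and rise in tumours, and its difference of 7.25 is a description.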

How the results depend on the processing

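Of the 14 results called in the bulk animals for isotypes other than Tuba1c, none reversed, and 601 of 602 refits under the alternatives kept direction and call. The exception was Tubb5 in tumours against CKO with the compared groups alone (0.75, adjusted p = 0.0501). With the compared groups alone 1 of the 9 other isotypes (Tubb2b) was called in CKO against WT at 12 dpi in place of 0 (2 in place of 1 with Tuba1c, on which the set was chosen), and 3 (Tuba1a, Tubb2a and Tubb2b) in WT from 12 to 90 dpi in place of 0. DESeq2 called 1 isotype (Tubb2a) in the 10-cell sets in place of 0. Over all genes, CKO against WT at 12 dpi had 3 calls, 18 with DESeq2 and 92 with the compared groups alone, and at 90 dpi 8 and 17 with DESeq2. CKO from 12 to 90 dpi had 0 calls, 4 with DESeq2 and 1 with the compared groups alone. WT from 12 to 90 dpi had 1 call, 13 with DESeq2 and 295 with the compared groups alone. WT from 90 to 150 dpi had 3 calls, 21 with DESeq2 and 5 without the sex covariate. The 10-cell sets had 0 calls and 707 with DESeq2, and the pool-and-split sets 0 calls, 966 with DESeq2 and 1 without the filter. The spread at 12 dpi had 2 calls, 6 with detection in 0.9 of libraries, and 11 and 0 with pseudocounts of 0.1 and 5. Leaving out single animals or sets gave 2 to 6 calls for CKO against WT at 12 dpi, 4 to 9 at 90 dpi, 0 to 1 in CKO and 0 to 1 in WT from 12 to 90 dpi, 1 to 6 in WT from 90 to 150 dpi, and 0 to 4 and 19 to 38 for the spread at 12 and 90 dpi (62 with all sets). The cause was not tested.

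The numbers ending the labels of the small libraries did not pair the sets (correlations of -0.039 to 0.018 between same-numbered sets). With that number and sex as a block 0 genes were called in the 10-cell sets and 0 in the pool-and-split sets, and Tubb2a changed by -0.95 (adjusted p = 0.877). No paired analysis was possible for the bulk animals, because their numbers name animals. Depth limits Tuba1c, whose CKO values rest on 0 to 63 counts per animal.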

Other observations

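In the 11 animals with 2 libraries, the median difference between the libraries of 1 animal, on log2(CPM + 1) scaled by library totals, was 0.11 for Tubb5, 0.19 for Tuba1a and Tuba1b, 0.23 for Tubb2b and Tubb3, and 0.28 to 0.43 for Tubb4a, Tubb2a, Tuba1c, Tubb6 and Tuba4a. The largest was that of Tuba4a in Tumor_16713, with 38.4 CPM in the first library and 0.453 in the second. Tubb4a in that tumour had 205 and 34.2 CPM.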
